A study of Canis lupus familiaris with 2 samples.

Results

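Genes of stratified epithelium and its cornified envelope, 10 in number, were followed in MDCK cells, an established dog kidney line that grows as a simple columnar sheet. They were chosen by gene symbol, as stratification and envelope genes other than keratins and desmosome genes, and were proposed with the values of these cultures already known. Of the 10 symbols, 9 (SFN, TGM1, PPL, EVPL, KLF4, KLF5, GRHL3, PERP and LAD1) were among the 23510 features listed for both cultures, and LY6D was not analysed here. One culture was kept under medium 2 cm high and 1 culture under medium 50 cm high, a pressure of 50 cm H2O. In the study's device the height of the medium sets the pressure, so the 2-cm culture bore a low pressure. Both were MDCK cells on semipermeable culture inserts in EMEM with 10% fetal serum, and RNA was taken on day 3. The comparison asks how the RNA levels of a columnar line under a static pressure of 50 cm H2O differ from those under medium 2 cm high. Because each medium height is 1 culture, none of the values has a replicate, no test was possible, and no difference could be set against the spread between cultures.

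In a stratified epithelium such as the epidermis, cells divide in the lowest layer, move upward and end as flattened cells that replace their plasma membrane by a cornified envelope. Envoplakin and periplakin form a scaffold beneath the membrane, transglutaminases cross-link further proteins such as involucrin and loricrin to it, and factors of the KLF and grainyhead families switch on many of the genes involved. A kidney tubule epithelium makes no such envelope, although several of these proteins are also used at the junctions and the basal surface of simple epithelia.

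Gene levels are given as FPKM, a count of fragments corrected for exon length and library size, so levels can be compared between genes only roughly. The gene annotation is not given, and ATP5O, a gene used by every cell, was listed at 0 in both cultures. The cultures are written as 2 cm and 50 cm, and in a pair of values the 2-cm culture comes first. The 9 genes spanned a wide range. In 2-cm-high medium PERP was highest at 172 FPKM, followed by SFN at 156, KLF5 at 121, LAD1 at 86.9 and PPL at 57.97 FPKM. EVPL (2.71 FPKM), GRHL3 (2.12 FPKM), TGM1 (0.942 FPKM) and KLF4 (0.265 FPKM) lay far below them, and PERP was 647 times as high as KLF4. In 50-cm-high medium only SFN and PERP had changed places. SFN, at 319 FPKM, stood first ahead of PERP at 173 FPKM, while KLF5 (111 FPKM), LAD1 (107 FPKM) and PPL (60.8 FPKM) followed in the same order as before. The lowest genes were again EVPL (2.42 FPKM), GRHL3 (2.12 FPKM), TGM1 (0.503 FPKM) and KLF4 (0.262 FPKM). The abundant genes were thus an adaptor, a tetraspan membrane protein, a factor of epithelial growth, a basal anchoring protein and 1 of the envelope scaffold partners, and the sparse ones included the cross-linking enzyme. Which neighbours in this order differ beyond their spread cannot be said without replicates.

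**Figure D1:**
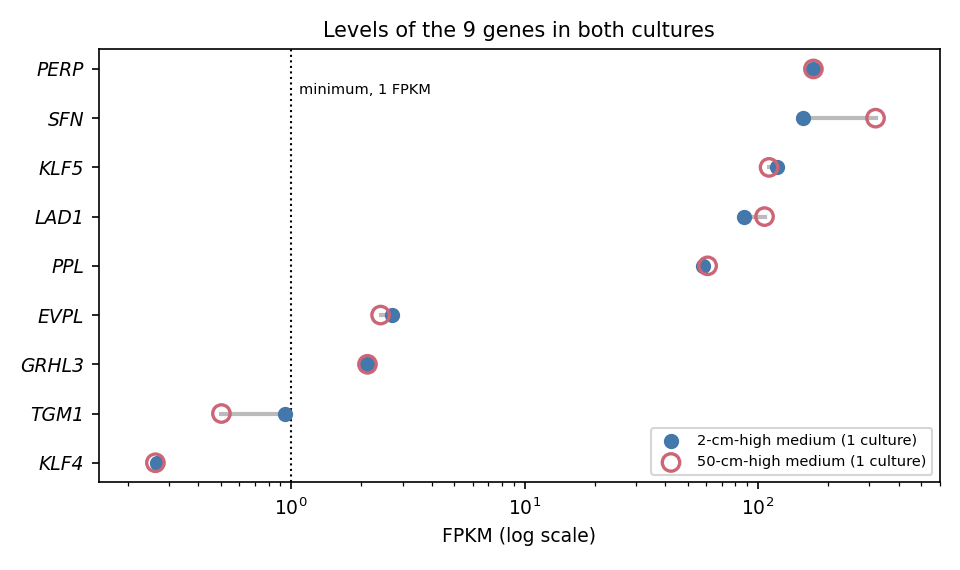
FPKM (log scale) of the 9 genes in 2-cm-high medium (filled points) and 50-cm-high medium (open circles), 1 culture each, ordered by level in 2-cm-high medium, with the dotted line at 1 FPKM. SFN moves from 156 to 319 FPKM and TGM1 from 0.942 to 0.503 FPKM, and the points of PERP, GRHL3 and KLF4 lie on top of each other.

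Differences are given as ratios, the level at 50 cm over the level at 2 cm, with nothing added to either. A feature was called past 2-fold when this ratio was above 2 or below 0.5 and the level exceeded 1 FPKM in both cultures, the limits written in the study's methods. The counts here are those that these limits give on the deposited values. Of the 9 genes, 7 exceeded that minimum, and TGM1 and KLF4 did not. SFN was the one gene past 2-fold among the 7, in the upward direction. Over all 11057 features above the minimum, 1.67% were past 2-fold in either direction, 0.389% upward and 1.28% downward. At such shares, a short list with no gene past 2-fold does not stand apart from all features, here or in the lists below. The 7 ratios ran from 0.891 to 2.05 with a median log2 ratio of 0.0079, beside 0.0146 over all features. Of the 7, all but SFN and LAD1 lay within 1.2-fold of equality, as did 68.1% of all features. As deposited, 5 of the 7 had a ratio above 1, as did 52.6% of all features. Of the 5, GRHL3 (1.0004) and PERP (1.005) were almost at equality. With equal reads, a setting described below, all log2 ratios moved by -0.134 and the median over all features became -0.120. GRHL3 (0.911), PERP (0.916) and PPL (0.956) fell below 1 with this common shift, and SFN and LAD1 stayed above it. The values of these cultures were in view when the genes were proposed, so these shares describe the list only. Summed over the 9 genes, the FPKM values came to 599 at 2 cm and 775 at 50 cm, and without SFN to 443 and 457. SFN thus made up 26.0% of the sum in the first culture and 41.1% in the second.

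SFN encodes stratifin, an adaptor of the YWHA family that binds phosphorylated proteins, acts in the control of cell division and is made mainly in stratified epithelium. Its level was 156 FPKM at 2 cm and 319 FPKM at 50 cm, a difference of 163 FPKM. The ratio was 2.05 and the log2 ratio 1.03. In bulk RNA such as this, more cells making a transcript and more RNA per cell cannot be told apart. SFN lay above 96.2% of all features detected at 2 cm and above 98.2% of those detected at 50 cm. By ratio it was number 38 of the 43 features past 2-fold upward, close to the limit. Among the 500 features closest to it in average log2 level, the spread of the log2 ratio (a scaled median absolute deviation across genes, not an error between cultures) was 0.161, and the log2 ratios ran from -1.10 to 0.764, so that none of them was above SFN and at least 1 lay further from 0 in the downward direction. SFN lay 6.4 such deviations above 0.

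The side of the 2-fold limit on which SFN fell depended on how the libraries were scaled. The lowest FPKM values lie on steps left by whole reads, and these steps show that each read carried 9.77% more FPKM at 50 cm than at 2 cm. With a read made equal in both cultures, the ratio of SFN was 1.86. This setting takes the library scaling out of the deposited values and so leaves any difference in depth uncorrected. Under it the median log2 ratio of all features moved by -0.134, to -0.120, so that SFN kept its distance from the other genes. Upper-quartile scaling gave 1.95 and quantile normalization 1.97. The count of features past 2-fold depended on scaling in the same way. As deposited, 43 were upward and 142 downward, with equal reads 25 and 229, and after quantile normalization 61 and 99.

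The other adaptors of the YWHA family, which are made in nearly all cells, served as the nearest relatives of SFN. All 6 exceeded the minimum, and none was past 2-fold. YWHAQ was the highest at 443 FPKM at 2 cm and 442 FPKM at 50 cm. YWHAE was at 342 and 347 FPKM, YWHAB at 136 and 148 FPKM, and YWHAZ at 136 and 153 FPKM. YWHAG (ratio 1.29) and YWHAH (ratio 1.27) had the largest ratios of the 6. The share of SFN in the summed FPKM of the whole family was 10.96% at 2 cm and 19.03% at 50 cm, whereas the sum of the other 6 genes was 1265 and 1355 FPKM. This share is formed within each library and so does not depend on how the libraries were scaled to each other. SFN has neighbouring genes that are also expressed. In the order of genes of a later dog assembly (UU_Cfam_GSD_1.0, RefSeq), the nearest coding genes on its sides were GPN2, with a ratio of 1.30 at 9.96 and 12.98 FPKM, and ZDHHC18, with a ratio of 1.19 at 15.1 and 18.04 FPKM. Both were below 2-fold and far below SFN in level.

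**Figure D2:**
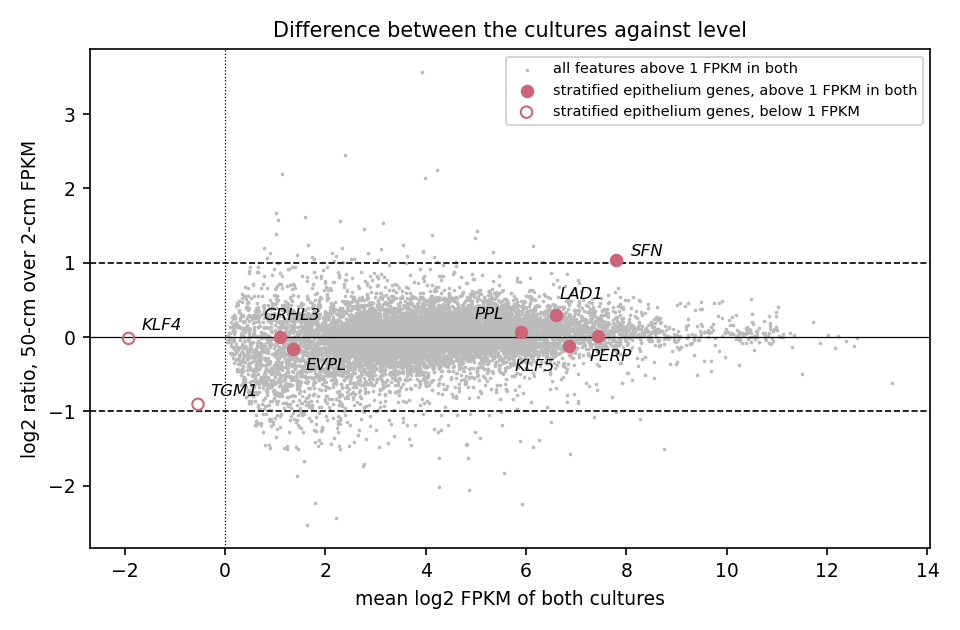
Log2 ratio of 50-cm over 2-cm FPKM against mean log2 FPKM for the 11057 features above 1 FPKM in both cultures (grey) and for the 9 genes (red, open where the level was below 1 FPKM), with dashed lines at 2-fold. SFN lies just above the upper line at 1.03, the other 6 red filled points lie between -0.17 and 0.29, and TGM1 lies near the lower line at -0.91 and left of the grey cloud.

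TGM1 encodes the membrane-bound transglutaminase that cross-links envelope proteins in keratinocytes. Its level was 0.942 FPKM at 2 cm and 0.503 FPKM at 50 cm. The ratio was 0.534, the lowest of the 9 genes, but both values were under the minimum of 1 FPKM. At such levels the ratios of other genes varied widely. Among the 500 closest features above 0.1 FPKM in both cultures this spread was 0.70, around a median log2 ratio of -0.258. TGM1 lay at -1.29 deviations from 0, with 415 of the 500 above it. A pseudocount of 1 brought its ratio to 0.774, and equal reads brought it to 0.487. Of the other 7 genes of the transglutaminase list that could be matched, none exceeded 1 FPKM in both cultures. TGM2, the widely made tissue transglutaminase, was at 0.610 FPKM at 2 cm and 0.913 FPKM at 50 cm. TGM2 was thus below TGM1 in the first culture, at 0.648 times its level, and above it in the second, at 1.82 times its level. EPB42, a relative without enzyme activity found in red cells, was at 0.489 and 0.464 FPKM. TGM3, TGM5, TGM6, TGM7 and F13A1 were listed at 0 in both cultures. A listed 0 is not proof of absence here, since ATP5O, a subunit of the ATP synthase that every cell uses, was also listed at 0 in both.

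PPL and EVPL encode periplakin and envoplakin, the plakin proteins that pair in the envelope scaffold. PPL was at 57.97 FPKM at 2 cm and 60.8 FPKM at 50 cm, a ratio of 1.05. EVPL was at 2.71 FPKM at 2 cm and 2.42 FPKM at 50 cm, a ratio of 0.891. Both lay within the spread of features of similar level, PPL at 0.36 and EVPL at -0.39 deviations from 0. The median log2 ratio of those features was 0.061 for PPL and -0.149 for EVPL. Each gene thus lay near the middle of its 500 features, with 238 above PPL and 253 above EVPL. The partners were made at very unequal levels, PPL being 21.4 times as high as EVPL at 2 cm and 25.2 times at 50 cm. None of the 5 other plakins was past 2-fold. DSP, which ties keratin filaments to desmosomes, was close to PPL at 61.5 FPKM at 2 cm and 60.2 FPKM at 50 cm. PLEC, which encodes plectin, a linker of keratin filaments to the basal surface, had the highest ratio of the family, 1.61, with 86.1 and 139 FPKM. DST was at 25.9 and 24.9 FPKM, MACF1 at 28.8 and 29.6 FPKM, and EPPK1 at 5.76 and 7.28 FPKM.

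KLF4 and KLF5 are zinc finger factors, the first active in barrier formation in upper layers and the second in dividing epithelial cells. KLF5 was at 121 FPKM at 2 cm and 111 FPKM at 50 cm, a ratio of 0.924. KLF4 was at 0.265 FPKM at 2 cm and 0.262 FPKM at 50 cm, a ratio of 0.988. With the worth of a read taken into account, the KLF4 ratio is the one that 10 reads against 9 give to within 0.0005%, or a multiple of them, so its value may rest on very few reads. The levels of KLF5 and KLF4 differed by 455 times in the first culture and 425 times in the second. KLF5 alone made up 53.0% of the KLF family's total at 2 cm and 49.4% at 50 cm. Of the 15 other KLF genes, 13 were in the files and 8 exceeded the minimum. None of the 8 was past 2-fold, and 4 had a ratio above 1, as did 52.6% of all features, and 4 below. The median log2 ratio of the 8 was 0.060, beside 0.0146 over all features. KLF15 had the highest ratio, 1.68, at 3.08 and 5.18 FPKM, and KLF11 the lowest, 0.693, at 7.70 and 5.33 FPKM. KLF8, KLF9 and KLF14 were listed at 0 in both cultures.

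GRHL3 encodes a grainyhead factor needed for barrier formation and wound closure, and TGM1 is among its known targets. It was at 2.12 FPKM in both cultures, with a ratio of 1.0004. The ratio is one that 79 reads against 72 give, or a multiple of them, so about equal FPKM values here correspond to fewer reads at 50 cm. GRHL3 was the lowest of its family, at 2.32% of the family's total at 2 cm and 2.27% at 50 cm. GRHL2, the member typical of simple epithelium, was 5.50 times as high as GRHL3 in the first culture and 4.51 times in the second, at 11.7 and 9.57 FPKM. GRHL1 was at 11.96 and 12.3 FPKM, TFCP2 at 19.5 and 19.01 FPKM, TFCP2L1 at 10.2 and 12.1 FPKM, and UBP1 at 36.1 and 38.5 FPKM. None of these 5 genes was past 2-fold, and their ratios ran from 0.819 to 1.19.

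PERP encodes a tetraspan protein of the plasma membrane that supports desmosomes in stratified epithelium and is a target of TP63. It was at 172 FPKM at 2 cm and 173 FPKM at 50 cm, a ratio of 1.005. PERP was above SFN by 1.10 times in the first culture and at 0.542 times its level in the second. The relation of these genes thus turned over between the cultures, whatever the scaling of the libraries. TP63, the factor that directs stratification, was listed at 0 in both, and its relative TP73 was at 5.92 and 6.95 FPKM. Beside PERP, 5 small tetraspan proteins were listed, and 3 of them exceeded the minimum. PMP22, known from myelin and epithelial junctions, was past 2-fold at 17.2 FPKM at 2 cm and 34.7 FPKM at 50 cm, a ratio of 2.02. It came under the limit with equal reads, at 1.84, with a pseudocount of 1, at 1.96, and also after quantile normalization and upper-quartile scaling. EMP1, an epithelial membrane protein, was at 146 and 174 FPKM, a ratio of 1.19, and TMEM47 at 10.8 and 12.6 FPKM.

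LAD1 encodes ladinin, a protein of the anchoring filaments that hold basal cells to their basement membrane. It was at 86.9 FPKM at 2 cm and 107 FPKM at 50 cm, a ratio of 1.23 and the highest of the 9 genes after SFN. It lay 1.49 deviations above 0, with 63 of the 500 features of closest level above it. With equal reads its ratio was 1.12. Of the 11 other genes of basal anchoring, all exceeded the minimum and none was past 2-fold. As deposited, 9 had a ratio above 1, as did 52.6% of all features. The median log2 ratio of the 11 was 0.12, beside 0.0146 over all features. With equal reads, which moved the median log2 ratio of all features to -0.120, 4 of the 11 came below 1 and the others kept their side. The 4 were COL17A1 (0.993), CD151 (0.977), LAMB3 (0.952) and FERMT1 (0.943). PLEC had the highest ratio, 1.61, and COL7A1, the collagen of anchoring fibrils, the lowest, 0.578, at 2.89 and 1.67 FPKM. COL17A1, the hemidesmosome collagen, was at 141 FPKM at 2 cm and 154 FPKM at 50 cm. The share of LAD1 in the summed FPKM of the list was 12.0% and 12.3%.

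Genes related to those studied were examined from lists drawn up by family and role with earlier results of these data known. The lists hold the YWHA, transglutaminase, plakin, KLF, grainyhead, tetraspan and basal anchoring genes above as well as envelope genes. In all, 165 further genes were listed, 147 were in the files and 76 exceeded 1 FPKM in both cultures. Of these, 3 (LOR, PLAUR and PMP22) were past 2-fold, all upward, beside 1.67% of all features in either direction and 0.389% upward. Only LOR of the 3 came from the envelope list. The median log2 ratio of the 76 genes was 0.10, beside 0.0146 over all features. With equal reads PLAUR alone stayed past 2-fold, at 2.15.

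Envelope proteins and markers of late keratinocytes made up 37 of the listed genes. Of the 25 in the files, 11 were listed at 0 in both cultures, among them FLG, which encodes filaggrin, and 8 exceeded the minimum. LOR, which encodes loricrin, the main protein of the epidermal envelope, was at 8.47 FPKM at 2 cm and 18.1 FPKM at 50 cm. Its ratio was 2.13, and 1.94 with equal reads. IVL, which encodes involucrin, an early cross-linked precursor, was at 0.788 and 1.16 FPKM, a ratio of 1.47 with one value under the minimum. SBSN, which encodes suprabasin, was at 0.446 and 1.31 FPKM, a ratio of 2.93, again with one value under the minimum, and lay 2.27 deviations above 0 among features of similar level, whose spread was 0.69. S100A10 and S100A11, small calcium-binding proteins found in envelopes and in many other cells, were at 620 and 809 FPKM and at 1003 and 1209 FPKM. SCEL, which encodes the envelope precursor sciellin, was at 15.3 and 17.8 FPKM. S100A8 had the lowest ratio of the 8, 0.904.

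Of 25 other transcription factors of stratified epithelium, 24 were in the files, 15 exceeded the minimum and none was past 2-fold. Of the 15, 7 had a ratio above 1, as did 52.6% of all features. The median log2 ratio of the 15 was -0.073, beside 0.0146 over all features. ELF3, a factor of epithelial differentiation, had the lowest ratio, 0.709, at 157 FPKM at 2 cm and 111 FPKM at 50 cm. CEBPA, a factor of upper layers, had the highest, 1.35, at 2.14 and 2.89 FPKM. OVOL1, which acts in epidermal differentiation, was at 4.40 and 3.88 FPKM, a ratio of 0.882.

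Among 16 genes of the LY6 and PLAUR domain family, 4 of the 14 in the files exceeded the minimum. PLAUR, the receptor of urokinase, was past 2-fold at 7.64 FPKM at 2 cm and 18.04 FPKM at 50 cm, a ratio of 2.36. LYPD1 had the lowest ratio, 0.869, and LY6E, at 70.5 and 64.2 FPKM, the highest level. LYPD3, a surface marker of differentiated keratinocytes, was at 0.0417 and 0.0457 FPKM, the ratio that 1 read against 1 gives.

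Lipid and protease genes of the barrier held no member past 2-fold. Of 18 barrier lipid genes, 8 exceeded the minimum, from ALOX15B at a ratio of 0.767 to ELOVL4, which makes very long fatty acids, at 1.43. ABCA12, the lipid transporter of the epidermis, was at 0.0826 and 0.0907 FPKM, and ALOX12B and CERS3 were listed at 0. Of 16 surface proteases and inhibitors, 5 exceeded the minimum, from SPINT2 at 0.970 to SERPINB5, which encodes maspin, at 1.34. ST14, which encodes matriptase, was at 19.2 and 19.3 FPKM, and all 8 kallikrein genes listed were at 0 in both cultures.

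**Figure D3:**
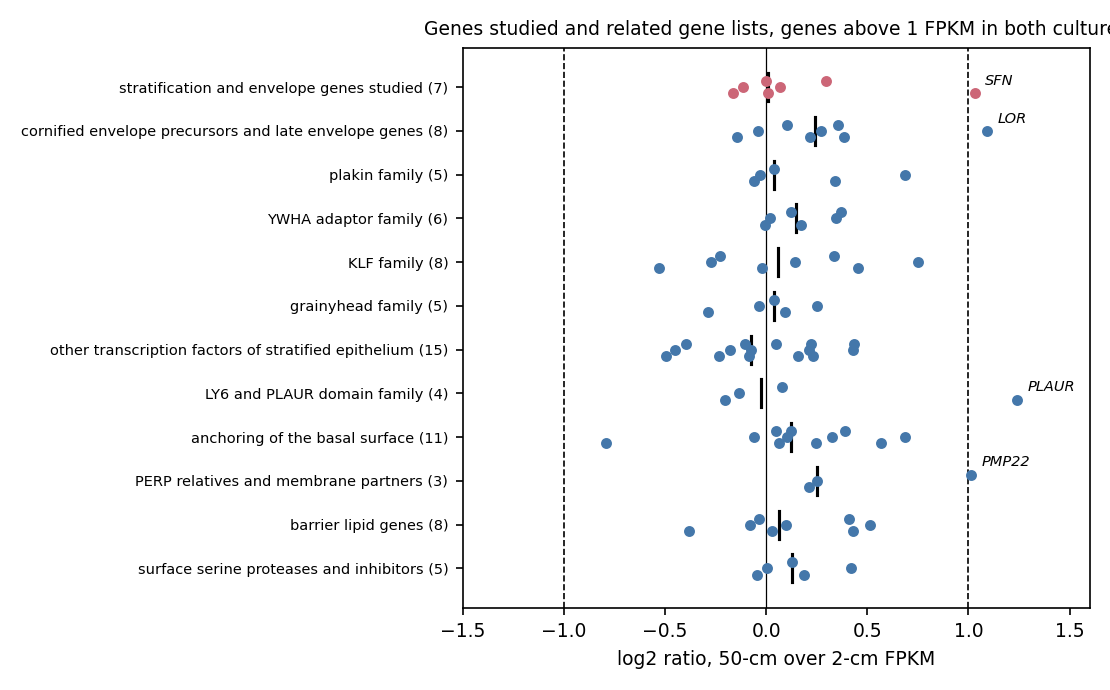
Log2 ratio of 50-cm over 2-cm FPKM for the genes above 1 FPKM in both cultures, 1 point per gene, with the number of genes in brackets, a black bar at each median and dashed lines at 2-fold. SFN, LOR, PLAUR and PMP22 lie past the upper line, no gene lies past the lower one, and the medians run from -0.073 to 0.25.

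The label of the cells was checked against markers. Of 10 markers of kidney and columnar epithelium, 9 were in the files and 8 exceeded 1 FPKM in both cultures, with KRT8 at 1641 and 1561 FPKM and PAX8 at 65.1 and 57.6 FPKM. CDH16, a cadherin of kidney tubules, was at 1.96 FPKM at 2 cm and 0.676 FPKM at 50 cm. Of 10 markers of basal and stratified keratinocytes, KRT5, KRT1, DSG1 and TP63 were listed at 0 in both cultures, and KRT14, KRT10 and DSG3 exceeded the minimum. Their summed level was 8.58 FPKM at 2 cm and 62.3 FPKM at 50 cm, of which KRT14 made up 4.40 and 52.3 FPKM. DSG3 was at 2.84 and 8.36 FPKM, a ratio of 2.94, and KRT10 at 1.17 and 1.62 FPKM, whereas KRT15 was at 0.0907 and 0.0497 FPKM and KRT4 at 0.0328 and 0 FPKM. The higher sum at 50 cm thus came almost wholly from KRT14 and DSG3, and its part in the SFN value was not tested. The 7 fibroblast markers summed to 0.374 and 0.401 FPKM and the 5 endothelial markers to 0.474 and 0.277 FPKM. The leukocyte markers PTPRC, LYZ and CD3E were listed at 0 in both cultures.

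**Figure D4:**
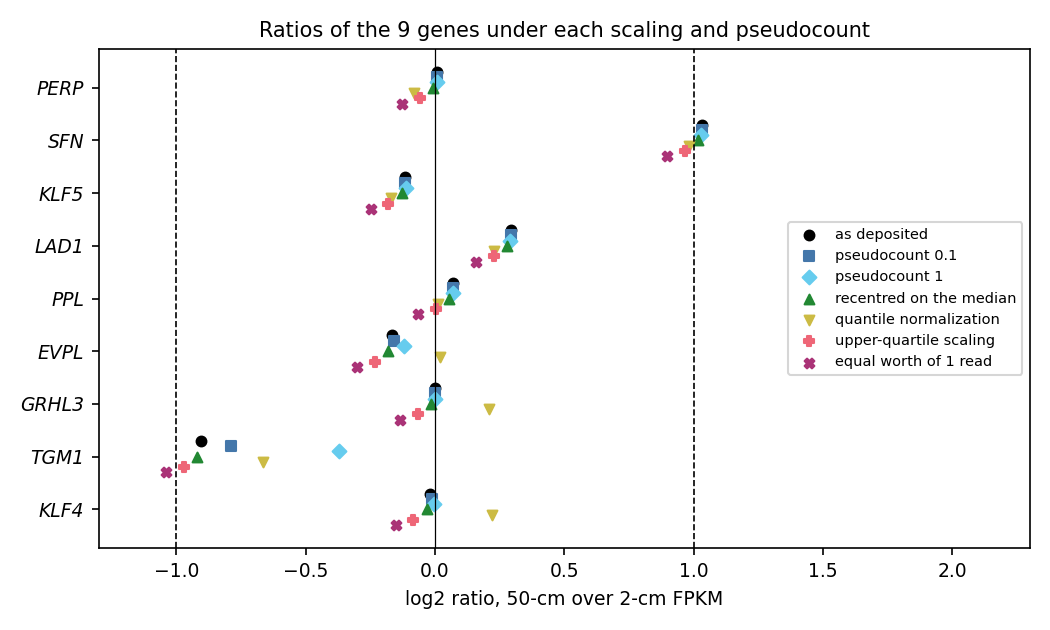
Log2 ratio of 50-cm over 2-cm FPKM of the 9 genes as deposited and under 2 pseudocounts and 4 other scalings, with dashed lines at 2-fold. Among these scalings, equal reads leave depth uncorrected. SFN lies between 0.90 and 1.03, on either side of the upper line, and TGM1 runs from -1.04 to -0.37.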

How the data were processed

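RNA of 2 MDCK cultures, 1 per medium height, was analysed. Per the labels and the study's methods, the authors made stranded mRNA libraries, mapped single-end reads to CanFam3.1 with TopHat2 2.0.13, Bowtie2 2.2.3 and SAMtools 0.1.19, and deposited FPKM values from Cuffnorm 2.2.1. Annotation, scaling method and counting by strand are not given in the sources used here. FPKM depends on library scaling, and read numbers are unknown. The worth of 1 read was compared between cultures from the steps of 574 features below 0.1 FPKM, of which 219 lay within 0.2% of the equal-read ratio. Ratios of whole reads (at most 100 per culture, to within 0.0005%) would arise by coincidence for 1.85% of values.

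Ratios were computed in pandas 2.3.3 and numpy 2.4.6 under Python 3.11.15 and drawn with matplotlib 3.10.9, and the calling steps were tested on simulated data. With 1 sample per group no test was run. The spread beside a ratio is the scaled median absolute deviation over 500 features of closest level above 1 FPKM in both cultures, or above 0.1 FPKM for genes under that minimum. Deviations were counted from 0, not from the median of those features. Named are the 9 genes, in each related list the genes past 2-fold or else the extremes, and every gene above 1 FPKM of the YWHA, transglutaminase, plakin and grainyhead families. Further genes, among them those under 1 FPKM, were named after their values were seen. Genes and lists were chosen with earlier results of these data known. TFAP2A and ABHD5 were matched by gene ID. The RefSeq table, of another assembly (UU_Cfam_GSD_1.0), gave names and gene order only. In it 8 of the 9 genes matched, and TGM1, PPL and GRHL3 were each overlapped by a long noncoding RNA whose reads could not be separated here. Alternatives were pseudocounts, minima, folds and scalings. The values of some listed genes and markers are not reported here.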

Additional observations from a re-analysis of the deposited data

How the results depend on the processing

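With 1 culture per medium height no replicate could be left out. No paired analysis was possible because each group holds 1 sample. The count of the 7 genes past 2-fold, 1 as deposited, was 0 after quantile normalization, 0 after upper-quartile scaling, 0 with equal reads and 0 at a limit of 3-fold, and stayed at 1 under the other 8 alternatives. The median log2 ratio ran from -0.13 with equal reads to 0.069 above 5 FPKM, beside -0.12 and 0.036 over all features. All 54 single-gene values moved by less than the spread of features of similar level. Of the related genes, 3 were past 2-fold as deposited, 1 with equal reads, 5 above 0 FPKM, 6 at 1.5-fold and 0 at 3-fold. Over all features the count of 185 became 92 with a pseudocount of 1, 730 above 0.1 FPKM, 62 above 5 FPKM, 384 above 1 FPKM in at least one culture, 1216 above 0 FPKM, 795 at 1.5-fold and 20 at 3-fold. Lower minima and lower folds admit more features by construction. Depth in reads is unknown, which limits TGM1 and KLF4 most.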
